A study of Rattus norvegicus with 9 samples.

Results

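Multidrug ABC exporters are ATP-driven pumps of the cell membrane. In the liver they move drugs, conjugated metabolites, phospholipids and bile constituents out of the hepatocyte, either into bile across the canalicular membrane or back into blood across the basolateral membrane. The P-glycoproteins Abcb1a and Abcb1b, the canalicular conjugate pump Abcc2 (MRP2) and Abcg2 (BCRP) work toward bile, while Abcc3 (MRP3) and Abcc4 (MRP4) work toward blood. In rodents the P-glycoprotein of other species is encoded by the Abcb1a and Abcb1b pair, and transcription of several of these pumps responds to the xenobiotic receptors CAR and PXR and to the stress-activated factor NRF2.

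The 9 members were Abcb1a, Abcb1b, Abcb4, Abcc1, Abcc2, Abcc3, Abcc4, Abcc6 and Abcg2, out of 22093 genes that had an array feature (a transcript cluster) annotated with 1 symbol. They were taken by name as a transporter family, and the family was selected on the difference of Abcb1b between T2D and healthy livers, which earlier results had shown. Of the 11 clusters that carried a member's symbol, the one with the highest mean over the 9 arrays stood for the gene, and this choice made no use of the groups. All 9 members were measured, and 7 of 9 had a mean log2 signal of at least 5. The exceptions were Abcc1 and Abcg2.

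RNA from the livers of young adult male Wistar rats was hybridised to rat whole-transcriptome arrays, in 3 pools per group with RNA of 3 animals in each pool. The treated group (pools 1 to 3) had type 2 diabetes (T2D), induced with a high-fat diet and a single low dose of streptozotocin, and received 28 mg/kg gamma conglutin (Cγ, a lupin seed protein) with 20 mg/kg lupanine (a lupin alkaloid) by daily oral gavage for 7 days. The T2D control group (pools 4 to 6) had the same induction without the lupin compounds. The healthy group (pools 7 to 9) had neither the induction nor the compounds. Both of these groups received the saline vehicle alone by the same daily gavage. A diet and toxin model is not spontaneous T2D, and streptozotocin acts by destroying insulin-producing cells. Healthy livers were lysed in Buffer RLT and both T2D groups in Trizol, so the T2D state and the lysis reagent cannot be told apart in any difference from healthy livers. The sources call the pools both biological and technical replicates, so the p-values measure the spread between these pools, which may be partly technical.

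All values below are log2 signals or differences between them. The array medians were 3.07 to 3.1 in treated, 3.06 to 3.11 in T2D control and 3.16 to 3.27 in healthy pools. The mean of the array's background probes was 2.85 to 2.94 in treated, 2.80 to 2.85 in T2D control and 3.35 to 3.72 in healthy pools. Healthy pool 8 had the highest background and was the lowest healthy pool for 9 of 9 members, while it was the lowest for 48.6% of all clusters with a mean of at least 5. The number of arrays limits the precision of every value. A liver pool mixes cell types, and fewer cells of a type and less RNA per cell cannot be told apart. The albumin gene Alb, which defines hepatocytes, read 12.55, 12.59 and 12.70 in treated, 12.67, 12.67 and 12.68 in T2D control and 12.76, 12.69 and 12.77 in healthy pools.

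Abcb4, Abcb1b and Abcb1a lie side by side on rat chromosome 4. Their promoters are shown because the neighbours differed widely in size of change. The RefSeq windows (build GRCr8, minus strand) run from 250 bases before to 50 bases after the gene start. They lie at chr4:26279980-26280279 for Abcb1b, chr4:26397599-26397898 for Abcb1a and chr4:26164096-26164395 for Abcb4. Capitals mark every match, on both strands, to 8 short motifs, namely TATAAA (the TATA box), CCAAT (bound by the factor NF-Y), GGGCGG (the GC box), GCGTG (core bound by the Ahr and Arnt pair), TGACNNNGC (antioxidant response core), TGANTCA (AP-1), AGGTCA (nuclear receptor half-site) and CACGTG (E-box).
Abcb1b: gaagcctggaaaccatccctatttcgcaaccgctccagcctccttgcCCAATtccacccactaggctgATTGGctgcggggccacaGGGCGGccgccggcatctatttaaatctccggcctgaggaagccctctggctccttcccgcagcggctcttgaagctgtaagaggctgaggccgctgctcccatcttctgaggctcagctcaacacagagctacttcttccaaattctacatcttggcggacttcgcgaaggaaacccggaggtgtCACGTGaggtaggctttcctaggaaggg
Abcb1a: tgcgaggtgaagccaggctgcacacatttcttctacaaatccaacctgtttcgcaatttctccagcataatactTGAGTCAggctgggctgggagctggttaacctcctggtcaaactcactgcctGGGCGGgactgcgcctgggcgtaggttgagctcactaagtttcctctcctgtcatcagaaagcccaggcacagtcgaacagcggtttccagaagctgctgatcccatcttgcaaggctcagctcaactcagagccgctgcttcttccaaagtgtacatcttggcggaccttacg
Abcb4: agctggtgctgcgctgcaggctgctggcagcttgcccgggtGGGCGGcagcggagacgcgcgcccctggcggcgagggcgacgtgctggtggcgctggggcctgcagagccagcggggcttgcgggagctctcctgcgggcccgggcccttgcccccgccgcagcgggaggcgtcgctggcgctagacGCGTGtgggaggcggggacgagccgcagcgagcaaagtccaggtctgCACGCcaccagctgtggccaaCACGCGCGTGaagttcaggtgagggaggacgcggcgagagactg
The Abcb1b and Abcb1a windows shared the run tacatcttggcggac of 15 bases, the longest shared by any of the 28 pairs of member promoters. In the other pairs the longest run was of 7 to 12 bases.

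Promoters of 8 of 9 members were matched, all but Abcc3. The GC box GGGCGG was in 8 of 8 member windows, against 33.1% of all 33469 RefSeq promoter windows of this length. CCAAT was in 3 of 8 windows (Abcb1b, Abcc2 and Abcc6), against 37.5% of all. The Abcb1b window alone held CACGTG, which 6.42% of all windows hold, and the Abcb1a window alone held TGANTCA, which 7.33% of all hold. GCGTG was in 4 of 8 windows (Abcb4, Abcc1, Abcc4 and Abcg2), against 29.7%. TGACNNNGC and AGGTCA were in the Abcc2 window alone, and 12.1% and 16.2% of all windows hold them. TATAAA was in 0 of 8 windows, against 14.2%. Both TGANTCA and TGACNNNGC begin with TGA, so a single site can match both, and none did here. These matches describe the letters only.

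The first question was how livers of rats with T2D differed from healthy livers. Most of the exporters were higher in each T2D group, though not the same ones, with Abcb1b far ahead of the others. Against healthy livers, 6 of 9 members were higher in T2D control and 6 of 9 in treated livers at an adjusted p under 0.05, and 0 were lower in either comparison. Those called in both were Abcb1a, Abcb1b, Abcc1, Abcc2 and Abcc3, while Abcb4 was called in T2D control alone and Abcc6 in treated livers alone. Without Abcb1b, whose rise was already known, the counts were 5 of 8 and 5 of 8. Among all 68842 clusters, 12.4% were called higher and 22.6% lower in T2D control livers, and 11.1% higher and 23.1% lower in treated livers. Among the 16024 clusters with a mean of at least 5, the shares called higher were 33.3% in T2D control and 28.8% in treated livers.

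The median member difference was 0.72 for T2D control minus healthy, against -0.12 over all clusters. For treated minus healthy it was 0.64, against -0.13 over all clusters. Without Abcb1b the member medians were 0.59 in treated and 0.69 in T2D control livers, and over all clusters with a mean of at least 5 the medians were 0.08 in treated and 0.10 in T2D control livers. Centring each array on its median moved the overall median to 0.00 for T2D control minus healthy and to -0.01 for treated minus healthy. It also turned the balance of all calls, with 16.4% of clusters higher and 12.1% lower in T2D control livers and 15.3% higher and 11.5% lower in treated livers. The count of members called higher stayed at 6 in each comparison.

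**Figure D1:**
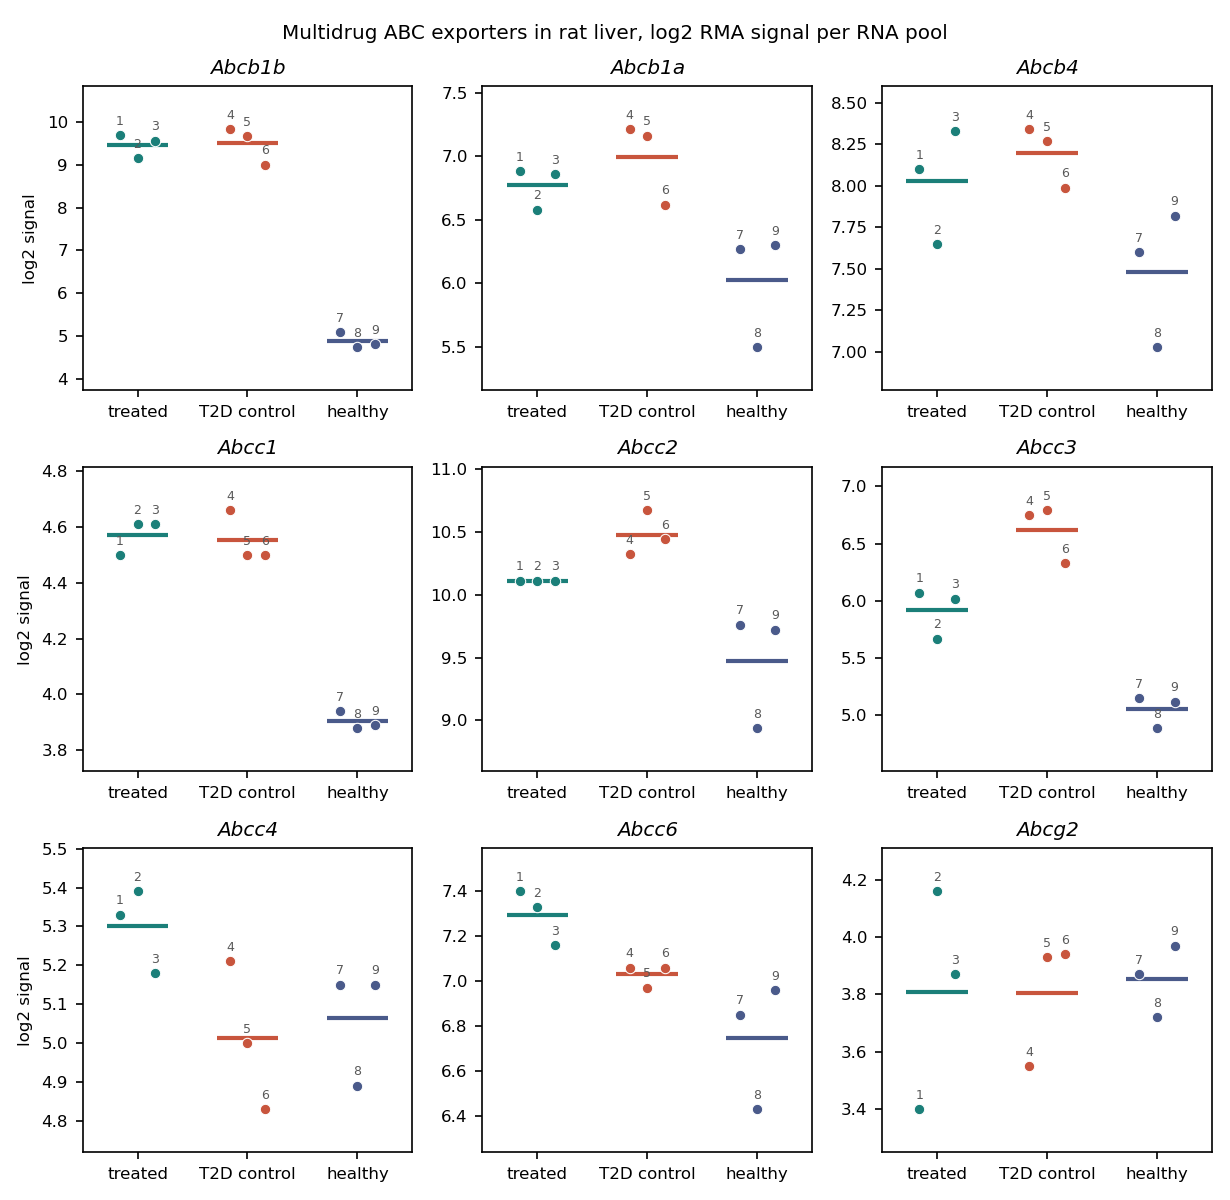
Log2 signal of each exporter (vertical axes, a separate scale for each gene) in treated, T2D control and healthy livers. Each point is 1 RNA pool with its number and the horizontal bar is the mean of the 3 pools. Abcb1b lies between 9.00 and 9.82 in all T2D pools and between 4.75 and 5.09 in healthy pools, while the 3 groups of Abcc2 and of Abcc3 are separate, with T2D control on top.

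Abcb1b encodes a P-glycoprotein, the pump that extrudes a wide range of lipophilic drugs. It read 9.68, 9.15 and 9.56 in treated pools, 9.82, 9.66 and 9.00 in T2D control pools and 5.09, 4.75 and 4.82 in healthy pools. No T2D pool came near the healthy range, and the T2D groups overlapped. The mean was 9.46 ± 0.28 in treated, 9.49 ± 0.44 in T2D control and 4.88 ± 0.18 in healthy livers (SD, n = 3 pools each), so the signal was 23.9-fold that of healthy livers in treated and 24.4-fold in T2D control livers. These folds are given as a description, with no test. Treated minus T2D control was -0.03 (SE 0.22, 95% interval -0.54 to 0.48, adjusted p = 1).

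Abcb1a, the other P-glycoprotein gene of the rat, read 6.88, 6.58 and 6.86 in treated, 7.21, 7.16 and 6.62 in T2D control and 6.27, 5.50 and 6.30 in healthy pools. All T2D pools were above all healthy pools, by a narrow margin. It rose by 0.75 in treated livers (SE 0.24, adjusted p = 0.0392) and by 0.98 in T2D control livers (SE 0.24, adjusted p = 0.0146). Without healthy pool 8 the difference was 0.49 in treated (adjusted p = 0.086) and 0.71 in T2D control livers (adjusted p = 0.0264). Leaving out T2D control pool 4 or pool 5 ended the T2D control call (adjusted p = 0.0529 and 0.0555). The treated call held in 8 of 17 alternative settings, with adjusted p from 0.0274 to 0.111, and the T2D control call in 15 of 17. Abcb1a and Abcb1b are close paralogs, and how far the array's probes separate them is not given in the sources used here.

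Abcb4, a floppase that delivers phosphatidylcholine into bile, read 8.10, 7.65 and 8.33 in treated, 8.34, 8.27 and 7.99 in T2D control and 7.60, 7.03 and 7.82 in healthy pools. The treated and healthy pools overlapped, and the T2D control pools lay above the healthy ones. It rose by 0.72 in T2D control livers (SE 0.23, adjusted p = 0.0412), and the treated difference was 0.54 (SE 0.23, adjusted p = 0.0949). The T2D control call was lost without healthy pool 8, at a difference of 0.49 (adjusted p = 0.112), and it held in 8 of 17 alternative settings.

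Abcc2, the canalicular pump for glucuronide, glutathione and bilirubin conjugates, read 10.11 in each of the 3 treated pools, 10.32, 10.67 and 10.44 in T2D control pools and 9.76, 8.94 and 9.72 in healthy pools. The 3 groups did not overlap. Identical values within a group occurred in 7174 clusters (10.4%), and Abcc2 was the 1 member among them. It rose by 0.64 in treated livers (SE 0.20, adjusted p = 0.0399) and by 1.00 in T2D control livers (SE 0.20, adjusted p = 0.00685). Without healthy pool 8 the rise was 0.37 in treated (adjusted p = 0.0264) and 0.73 in T2D control livers (adjusted p = 0.00242). With quantile normalization the difference was 0.36 in treated (adjusted p = 0.142) and 0.53 in T2D control livers (adjusted p = 0.0413). The treated call held in 9 of 17 alternative settings and the T2D control call in 17 of 17.

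Abcc3, the basolateral pump that returns conjugates and bile acids to blood, read 6.07, 5.67 and 6.02 in treated, 6.75, 6.79 and 6.33 in T2D control and 5.15, 4.89 and 5.12 in healthy pools. All 3 groups were separate, with the treated pools in between. It rose by 0.86 in treated livers (SE 0.15, adjusted p = 0.0038, 1.82-fold) and by 1.57 in T2D control livers (SE 0.15, adjusted p = 0.000277, 2.97-fold). Both calls held in 17 of 17 alternative settings.

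Abcc1 (MRP1), a pump for glutathione conjugates and leukotriene C4 found in many cell types, read 4.50, 4.61 and 4.61 in treated, 4.66, 4.50 and 4.50 in T2D control and 3.94, 3.88 and 3.89 in healthy pools. The T2D pools were all above the healthy pools at low signals, and the healthy values lay not far above the mean of their arrays' background probes. It rose by 0.67 in treated livers (SE 0.064, adjusted p = 0.00026) and by 0.66 in T2D control livers (SE 0.064, adjusted p = 0.000299). Its second cluster read 3.21 to 3.52 over the 9 arrays, and in each healthy pool it lay below the mean of that array's background probes (3.50, 3.72 and 3.35). Its measured difference, 0.24 in treated and 0.22 in T2D control livers, is therefore no second measurement of the change.

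Abcc6, a hepatocyte transporter needed for ATP release and for the control of ectopic calcification, read 7.40, 7.33 and 7.16 in treated, 7.06, 6.97 and 7.06 in T2D control and 6.85, 6.43 and 6.96 in healthy pools. The treated pools were the highest. It rose by 0.55 in treated livers (SE 0.13, adjusted p = 0.0138), while T2D control minus healthy was 0.28 (SE 0.13, adjusted p = 0.119). Without healthy pool 8 the treated rise was 0.39 (adjusted p = 0.012).

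Abcc4, the basolateral pump for cyclic nucleotides, conjugates and bile acids with glutathione, read 5.33, 5.39 and 5.18 in treated, 5.21, 5.00 and 4.83 in T2D control and 5.15, 4.89 and 5.15 in healthy pools. The T2D control and healthy pools overlapped, and the lowest treated pool was just above the highest healthy one. The differences from healthy were 0.24 in treated (SE 0.11, adjusted p = 0.132) and -0.05 in T2D control livers (SE 0.11, adjusted p = 0.754). Its second cluster had measured differences of the other sign in treated livers, at -0.36 in treated and -0.37 in T2D control livers, but read 1.53 to 2.19, below the mean of the background probes on all 9 arrays.

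Abcg2, a pump for urate, sulfate conjugates and many drugs, read 3.40, 4.16 and 3.87 in treated, 3.55, 3.93 and 3.94 in T2D control and 3.87, 3.72 and 3.97 in healthy pools. The groups overlapped fully. The healthy values lay near the mean of those arrays' background probes (3.50, 3.72 and 3.35), and pool 8 was level with it. At such signals a flat reading does not show that expression was unchanged. The differences from healthy were -0.05 in treated (95% interval -0.48 to 0.39, adjusted p = 0.857) and -0.05 in T2D control livers (95% interval -0.48 to 0.38, adjusted p = 0.852).

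At the threshold in the study's methods, an unadjusted p under 0.05 with a difference over 2-fold, 1 of 9 members passed in treated livers (Abcb1b), where 3.63% of all clusters did. In T2D control livers 2 of 9 passed (Abcb1b and Abcc3), where 4.14% of all did. Abcb1b is counted as a description, since the family was selected on it, and without it 0 of 8 passed in treated and 1 of 8 in T2D control livers. Abcc2 and Abcb1a stopped short in T2D control livers at 0.999 and 0.975 on the log2 scale. The pools did not overlap and lay higher in T2D livers for 7 of 9 members in each comparison, against 13.9% of all clusters for treated and 15.0% for T2D control, and without Abcb1b for 6 of 8 in each. In treated livers these were the members named above without Abcb4 and Abcg2, and in T2D control livers those without Abcc4 and Abcg2. The margin was narrow for Abcc6 in T2D control (lowest pool 6.97, highest healthy pool 6.96) and for Abcc4 in treated livers (5.18 and 5.15). The shares without overlap cover clusters of all signal levels, most of them dimmer than the members. No such share was computed for clusters with a mean of at least 5.

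**Figure D2:**
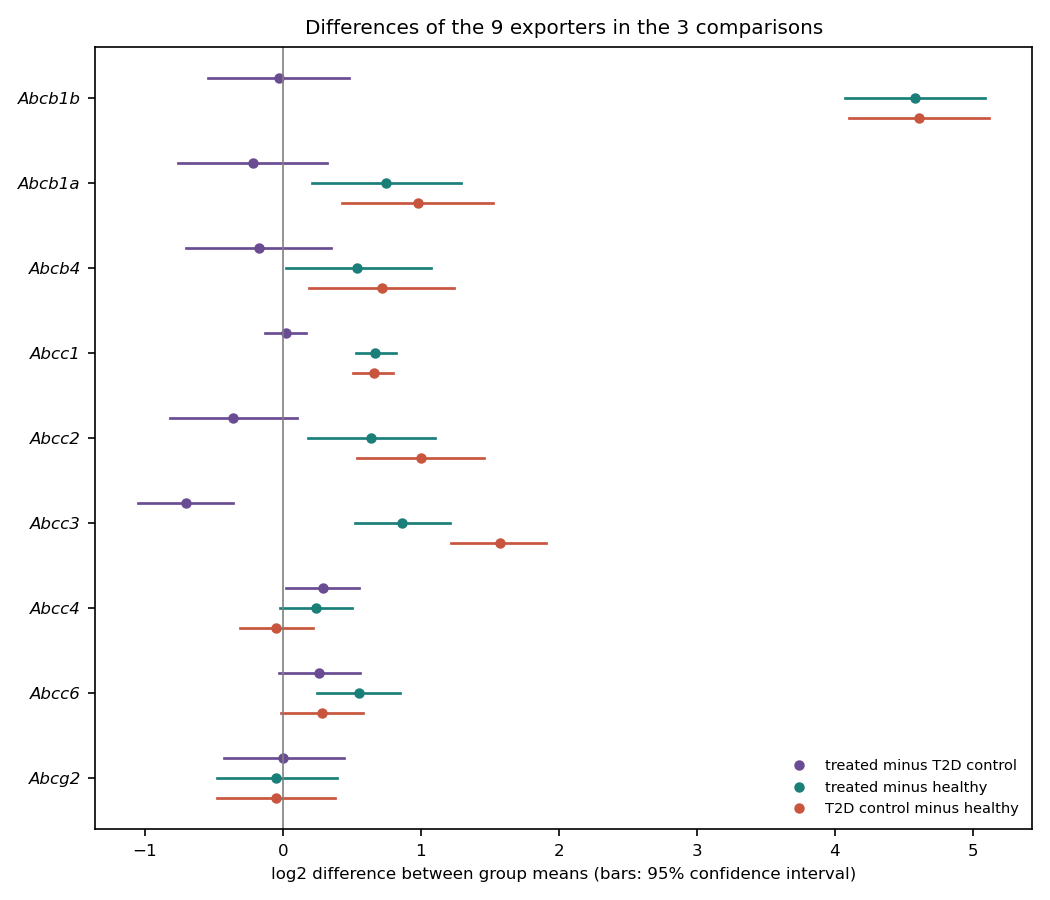
Log2 differences between group means (horizontal axis) of the 9 exporters in the 3 comparisons, with bars for the 95% confidence interval of the limma fit. Abcb1b lies at 4.58 and 4.61 against healthy livers, and for treated minus T2D control the intervals of Abcc3 (-1.05 to -0.36) and Abcc4 lie off 0 before adjustment.

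The second question was whether the lupin compounds moved the exporters within T2D. None of the 9 members passed limma's test at an adjusted p under 0.05 for treated minus T2D control, where 0.0668% of all clusters passed. The median member difference was -0.03, against 0.00 over all clusters. Abcc3 was lower in all 3 treated pools than in any T2D control pool, by -0.70 (SE 0.15, 95% interval -1.05 to -0.36, unadjusted p = 0.00143, adjusted p = 0.258). The difference of Abcc4 was 0.29 (SE 0.11, unadjusted p = 0.0361, adjusted p = 0.895), with groups that overlapped. Abcc2 was lower without overlap, by -0.36 (95% interval -0.82 to 0.10, adjusted p = 1), and Abcc6 higher without overlap, by 0.26 (SE 0.13, adjusted p = 1). Non-overlap toward lower values was found for 2 of 9 members (8.99% of all clusters) and toward higher values for 1 of 9 (5.27% of all). None of the 9 was past 2-fold at an unadjusted p under 0.05, against 0.244% of all clusters.

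For the remaining members the differences between the T2D groups were smaller in size. That of Abcb1a was -0.22 (95% interval -0.76 to 0.32), that of Abcb4 -0.17 (95% interval -0.70 to 0.35), that of Abcc1 0.02 (95% interval -0.13 to 0.17) and that of Abcg2 0.00 (95% interval -0.43 to 0.44).

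Some pairs of members deviated from their group means together and others did not. Over the 9 arrays, Pearson r of these deviations was 0.93 for Abcb1b and Abcc3, 0.89 for Abcb1a and Abcb4 and 0.86 for Abcb1a and Abcc3. It was -0.09 for Abcc1 and Abcc2, -0.01 for Abcc1 and Abcc6, 0.10 for Abcb1b and Abcc6 and 0.21 for Abcb1b and Abcc2. For Abcg2 it was -0.62 with Abcb1b and 0.35 with Abcc2. These r values describe 9 arrays that share pools, RNA preparation and array background.

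The genes whose log2 signal was most like that of Abcb1b over the 9 arrays, out of 8352 genes with a mean of at least 5, were Abcg1 (r = 0.996), Lgmn (0.995), Pcyox1 (0.995), Cd84 (0.994) and Clec7a (0.994). Abcg1 exports cholesterol to high-density lipoprotein, Lgmn is the lysosomal protease legumain, Pcyox1 is a prenylcysteine oxidase, Cd84 is a leukocyte surface receptor and Clec7a is dectin-1 of myeloid cells. All 5 were lower in every healthy pool than in every T2D pool, and r over all 9 arrays carries that contrast. With the group means removed, r with Abcb1b was 0.74 for Abcg1, 0.70 for Cd84, 0.66 for Pcyox1, 0.64 for Lgmn and 0.51 for Clec7a.

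Markers of macrophages, sinusoidal endothelium and stellate cells were mostly higher in the groups in which Abcb1b was high. Of 13 macrophage and Kupffer cell markers, 11 were higher and 1 lower in treated livers and 10 higher and 0 lower in T2D control livers. The mean over this list was 7.75 to 7.89 in treated, 7.65 to 8.01 in T2D control and 5.85 to 5.98 in healthy pools. The lysosomal marker Cd68 rose by 2.27 in treated (adjusted p = 3.34e-05) and by 2.23 in T2D control livers (adjusted p = 3.02e-05), and Gpnmb by 4.80 in treated (adjusted p = 3.11e-06) and in T2D control livers (adjusted p = 2.36e-06). The resident Kupffer cell gene Clec4f, named after its values were seen, fell by 0.57 in treated livers (adjusted p = 0.00728), and its T2D control difference was -0.24 (adjusted p = 0.139). Also named afterwards, Cd163 rose by 1.08 (adjusted p = 0.0101) and Marco by 0.79 (adjusted p = 0.0459) in treated livers. Vsig4 was not called there, at -0.39 (adjusted p = 0.151). In T2D control livers Cd163 rose by 0.86 (adjusted p = 0.0241), and Marco (0.47) and Vsig4 (-0.40) were not called. Sinusoidal endothelial markers were higher for 8 of 8 in each comparison, with list means of 7.54 to 7.58 in treated, 7.49 to 7.57 in T2D control and 6.63 to 6.94 in healthy pools. Stellate cell markers were higher for 6 of 8 in treated and 7 of 8 in T2D control livers, with list means of 6.51 to 6.77 in treated, 6.77 to 6.86 in T2D control and 5.74 to 5.79 in healthy pools.

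Of 8 hepatocyte markers, 0 were higher and 2 lower (Ttr and Fabp1) in treated livers, and 3 were higher (Apoa1, Cps1 and Tat) and 2 lower in T2D control livers. Their list means were 10.35 to 10.39 in treated, 10.37 to 10.55 in T2D control and 10.30 to 10.43 in healthy pools. Of 7 cholangiocyte markers 1 was higher and 3 lower in treated livers and 1 higher and 1 lower in T2D control livers, the higher one being Spp1, which macrophages also express. Of 7 lymphocyte markers 1 was higher in each comparison, the pan-leukocyte CD45 gene Ptprc. Krt19, which defines cholangiocytes, read 4.37 to 4.56 on all 9 arrays. The part of these markers in the exporter differences was not tested.

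Neighbouring genes did not share the size of the Abcb1b change. In the RefSeq gene order of chromosome 4, all 10 non-member neighbours around Abcb4, Abcb1b and Abcb1a were measured. The acyltransferase gene Crot, next to Abcb4, fell by 0.76 in treated (adjusted p = 0.0299) and by 0.71 in T2D control livers (adjusted p = 0.0375). Rundc3b, next to Abcb1a and given for its position, had a difference of -0.24 in treated (adjusted p = 0.0845) and -0.22 in T2D control livers (adjusted p = 0.105). Dmtf1, a Myb-like transcription factor, rose by 0.62 in treated (adjusted p = 0.000864) and by 0.68 in T2D control livers (adjusted p = 0.000571). Sri, which encodes the calcium-binding protein sorcin, rose by 0.51 in treated (adjusted p = 0.00628) and by 0.77 in T2D control livers (adjusted p = 0.00107). The glutamate receptor gene Grm3 had a difference of -0.20 in treated (adjusted p = 0.0125) and in T2D control livers (adjusted p = 0.0123), at signals of 2.05 to 2.27 that lay below the mean of the background probes on all 9 arrays. Rundc3b was below that mean in all 3 healthy pools.

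**Figure D3:**
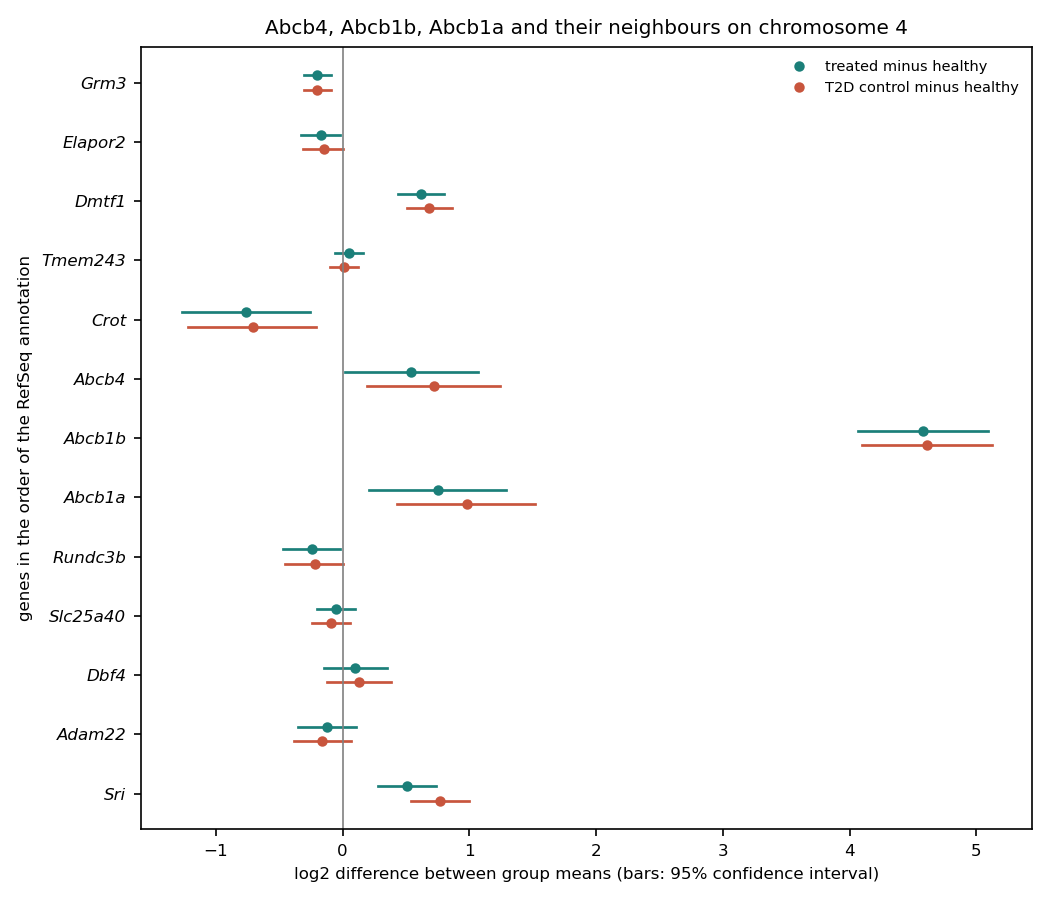
Log2 differences from healthy livers (horizontal axis, bars for the 95% confidence interval) of 13 genes in their order on chromosome 4. Abcb1b stands at 4.58 and 4.61, while the 12 others lie between the -0.76 of Crot and the 0.98 of Abcb1a.

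Among the other ABC transporters, 38 of 40 listed were measured. In treated livers 11 were higher and 4 lower, and in T2D control livers 11 were higher and 3 lower, with list medians of 0.04 in treated and 0.05 in T2D control livers. Of all clusters, 11.1% were called higher in treated and 12.4% in T2D control livers. With a mean of at least 5 these shares were 28.8% and 33.3%. The cholesterol exporters led the rises, with Abcg1 at 2.46 in treated (adjusted p = 1.02e-05) and 2.35 in T2D control livers (adjusted p = 1.32e-05) and Abca1 at 2.07 in treated (adjusted p = 0.000316) and 2.11 in T2D control livers (adjusted p = 0.000286). Abcc9, a regulatory subunit of ATP-sensitive potassium channels, rose by 1.71 in treated and 1.77 in T2D control livers, and the cyclic nucleotide pump Abcc5 by 1.37 in treated and 1.23 in T2D control livers. Of those lower in T2D control livers, named after their values were seen, Abcb6 fell by 0.69, Abcb9 by 0.36 and Abcc12 by 0.25. The bile salt export pump Abcb11, also named afterwards, read 9.84, 9.55 and 9.85 in treated, 9.75, 9.75 and 9.76 in T2D control and 9.70, 9.02 and 10.07 in healthy pools, and its difference from healthy was 0.15 in treated (adjusted p = 0.606) and 0.16 in T2D control livers (adjusted p = 0.591).

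**Figure D4:**
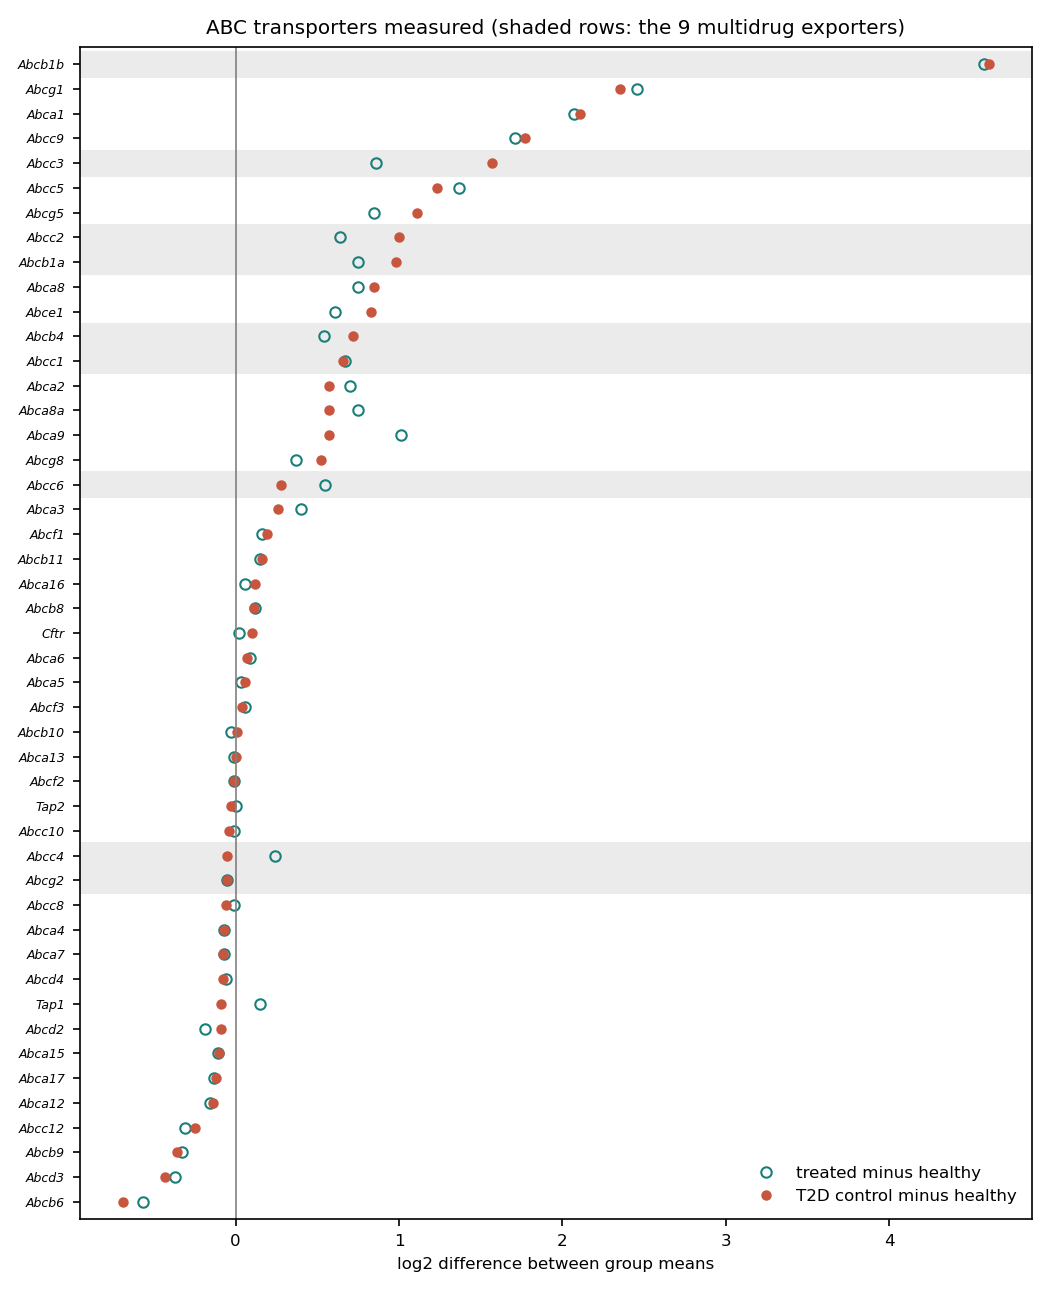
Log2 differences from healthy livers (horizontal axis) of the 9 multidrug exporters (shaded) and 38 other ABC transporters, ordered by T2D control minus healthy. Abcb1b is at the top, Abcg1 and Abca1 follow, and Abcb6 is lowest at -0.57 in treated and -0.69 in T2D control livers.

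The solute carriers listed mostly bring drugs and bile acids into the cell. Of 13 listed, 10 were measured, and 2 were higher and 3 lower in treated livers, against 1 higher and 3 lower in T2D control livers. The organic anion carrier Slc22a7 fell by 0.83 in treated (adjusted p = 0.000221) and by 1.07 in T2D control livers (adjusted p = 7.7e-05). The bile salt carrier Slc10a1 fell by 0.54 in treated (adjusted p = 0.00758) and by 0.68 in T2D control livers (adjusted p = 0.00278), and the anion carrier Slco1b2 by 0.60 in treated (adjusted p = 0.00328) and by 0.54 in T2D control livers (adjusted p = 0.00478). The prostaglandin carrier Slco2a1 rose by 0.87 in treated (adjusted p = 0.00475) and by 0.76 in T2D control livers (adjusted p = 0.00818), and Slco2b1, also an anion carrier, rose by 0.31 in treated livers (adjusted p = 0.0282).

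Of 15 measured regulators of exporter transcription, 7 were higher and 1 lower in treated livers, and 9 higher and 1 lower in T2D control livers. The fatty acid receptor gene Ppara rose by 1.35 in each (adjusted p = 0.000202 in each). Arnt, the partner of the aryl hydrocarbon receptor, rose by 0.66 in treated (adjusted p = 0.000766) and by 0.60 in T2D control livers (adjusted p = 0.00122), and the NF-kappa-B subunit genes Nfkb1 and Rela by 0.66 and 0.62 in treated and by 0.70 and 0.65 in T2D control livers. Named after their values were seen, the NRF2 gene Nfe2l2 rose by 0.55 in treated (adjusted p = 0.00651) and by 0.39 in T2D control livers (adjusted p = 0.0246). The gene of its inhibitor, Keap1, fell by 0.31 in treated (adjusted p = 0.0209) and by 0.39 in T2D control livers (adjusted p = 0.00809). The PXR gene Nr1i2 rose by 0.34 in treated (adjusted p = 0.0453) and by 0.37 in T2D control livers (adjusted p = 0.0339). The aryl hydrocarbon receptor gene Ahr rose by 1.19 in T2D control livers (adjusted p = 0.0217), and its treated difference was 0.52 (adjusted p = 0.221). None differed between the T2D groups at an adjusted p under 0.05, where the CAR gene Nr1i3 was 0.71 higher (unadjusted p = 0.0333, adjusted p = 0.876) and was the 1 regulator at an unadjusted p under 0.05. The groups overlapped for Nr1i3, which read 8.16, 7.13 and 6.93 in T2D control and 8.30, 7.93 and 8.12 in treated pools.

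Of 13 NRF2 targets, 3 were higher (Gclc, Hmox1 and Ephx1) and 2 lower (Gsta2 and Me1) in treated livers, and 5 higher and 1 lower (Gsta2) in T2D control livers. Hmox1, heme oxygenase, rose by 1.05 in treated (adjusted p = 0.00039) and by 1.22 in T2D control livers (adjusted p = 0.000198). Gsta2, a glutathione transferase, fell by 1.42 in treated (adjusted p = 0.000113) and by 1.10 in T2D control livers (adjusted p = 0.000327). Of 8 AHR targets, 0 were higher and 2 lower (Tiparp and Aldh3a1) in treated livers, and 1 was higher (Nqo1) and the same 2 lower in T2D control livers. These lists overlap in Nqo1. Of all clusters with a mean of at least 5, 28.8% were called higher in treated and 33.3% in T2D control livers.

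For several targets of CAR and PXR, of which 12 of 15 were measured, the treated pools lay below the T2D control pools, as they did for Abcc3. In T2D control livers 5 were higher (Cyp2b1, Cyp2b2, Alas1, Ces2c and Por) and 3 lower (Cyp3a9, Cyp3a18 and Cyp3a2) than in healthy livers. In treated livers 1 was higher (Alas1) and 4 lower (Cyp3a9, Cyp3a2, Cyp2c6v1 and Cyp3a23-3a1). Between the T2D groups 0 passed limma's test at an adjusted p under 0.05, with a list median of -0.35. Over all clusters, 8.99% lay lower in treated than in T2D control pools without overlap. Cyp2b3, Cyp3a18, Cyp3a2 and Cyp3a9, named after their values were seen, differed little, at 0.04, 0.03, -0.06 and -0.08. Cyp2b1, the phenobarbital-inducible P450, read 8.93, 8.56 and 9.60 in treated, 10.24, 11.50 and 11.30 in T2D control and 9.46, 8.76 and 9.49 in healthy pools. The treated pools overlapped the healthy ones and lay below all T2D control pools, a difference of -1.98 (SE 0.38, adjusted p = 0.189). The difference was -1.45 for its close paralog Cyp2b2 (SE 0.29, adjusted p = 0.209), -0.88 for Alas1, the first enzyme of heme synthesis (adjusted p = 0.523), and -0.95 for the carboxylesterase Ces2c (adjusted p = 0.534). T2D control pool 4 was the lowest of its group for these 4 genes, whereas for Abcc3 it was pool 6. A link between Abcc3 and these targets was not tested.

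**Figure D5:**
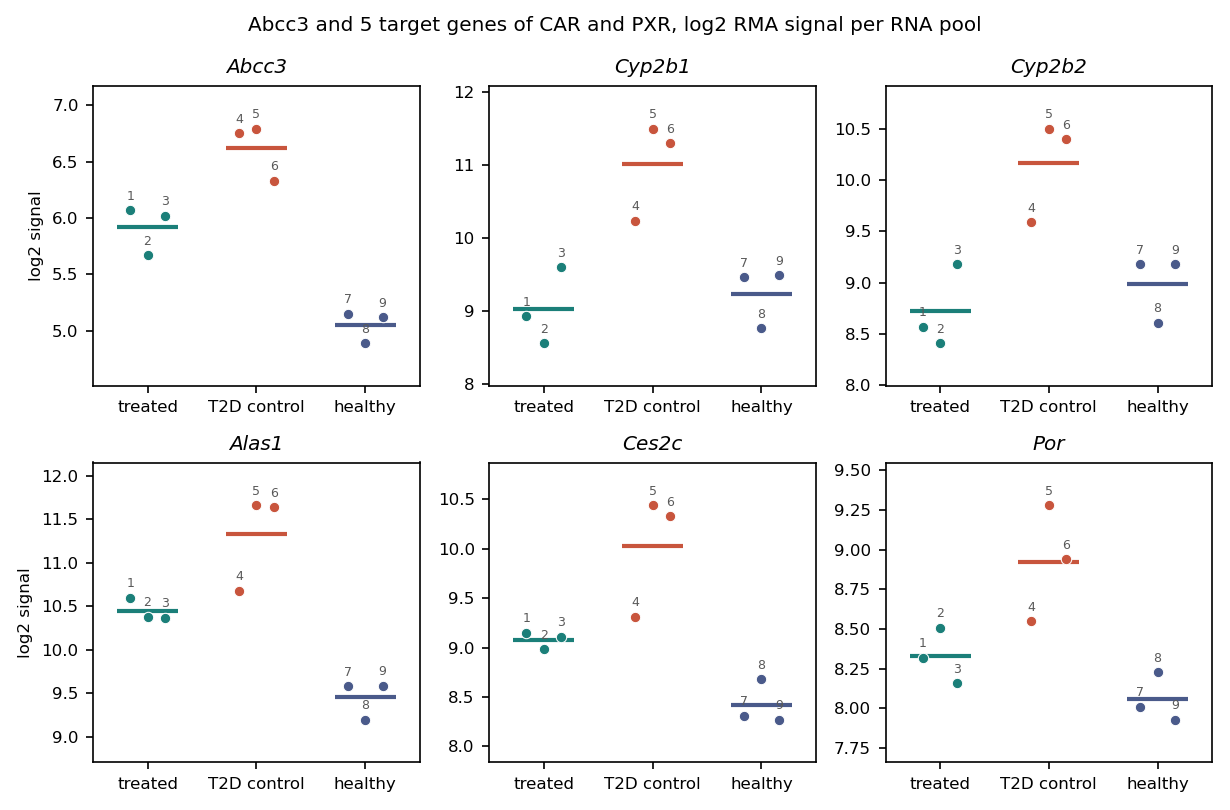
Log2 signal (vertical axes, a separate scale for each gene) of Abcc3 and of Cyp2b1, Cyp2b2, Alas1, Ces2c and Por in treated, T2D control and healthy livers. Points are RNA pools with their numbers and bars are means of 3 pools, and for all 6 genes the treated pools lie below the T2D control pools. The targets shown are those called higher in T2D control than in healthy livers, as Abcc3 was too. A choice by high T2D control readings itself favours treated pools that lie below them.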

How the data were processed

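RMA summaries were made by the authors in Transcriptome Analysis Console 4.0.2, and each deposited value is the log2 signal of 1 transcript cluster. The genome build and annotation behind them are not given in the sources used here. Values were used as deposited, and 0 columns were left unused. Of 70580 entries, 1738 control probe sets were left out, which leaves 68842 clusters. Gene symbols came from the platform annotation, and 23446 clusters carry 1 symbol. All 9 arrays entered a single limma fit (version 3.58.1, run in R 4.3.3, with 6 residual degrees of freedom before moderation), with Benjamini-Hochberg adjustment over all clusters. The fit was tested on simulated data with added differences of 1.5 and 3, which does not show how well smaller differences are found. The members and gene lists were chosen with earlier results of these data known. Named were all members, up to 4 genes per list with the smallest p in a comparison, and the 5 genes most like Abcb1b. Alternatives were quantile normalization, median centring, a filter at a mean of 5, 1-symbol clusters, trended and robust variances, array weights, 2 groups alone, means over a gene's clusters and leaving out each pool. Promoters came from RefSeq.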

Additional observations from a re-analysis of the deposited data

How the results depend on the processing

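Pools carry different numbers in each group. No paired analysis was possible because the groups compared share no replicate number. Against healthy livers, the calls of Abcc1 and Abcc3 in both comparisons, of Abcc2 in T2D control and of Abcc6 in treated livers held in all alternatives that tested them. Leaving out 1 pool at a time gave 4 to 7 members called higher in treated and 4 to 7 in T2D control livers. Pools whose removal gave the lowest count included treated pool 1 for treated livers and pool 4 for T2D control livers. The highest count in each comparison came without healthy pool 9, where Abcc6 joined in T2D control (adjusted p = 0.0382) and Abcb4 in treated livers (adjusted p = 0.0426). Quantile normalization gave 4 and 5 members higher in treated and T2D control livers.

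The number past 2-fold in T2D control livers was 4 with median centring and 2 to 4 when pools were left out (4 without T2D control pool 6, healthy pool 7 or healthy pool 9). Averaging a gene's clusters called 1 member lower in T2D control livers, Abcc4, by -0.21 (adjusted p = 0.0442), because its dim second cluster then counts equally, and turned its treated minus healthy difference to -0.0608.

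Some signs turned. With median centring, T2D control minus healthy was 0.069 for Abcg2 and 0.0696 for Abcc4, and treated minus healthy was 0.0785 for Abcg2. With quantile normalization, Abcg2 was 0.0506 for treated minus healthy and 0.0519 for T2D control minus healthy, and for treated minus T2D control Abcb1b was 0.14 and Abcg2 -0.0013. Array weights gave Abcb1b 0.0439 for treated minus T2D control. Over the left-out pools, Abcg2 ranged from -0.115 to 0.0789 for T2D control minus healthy, from -0.22 to 0.16 for treated minus healthy and from -0.17 to 0.21 for treated minus T2D control, and Abcc4 from -0.147 to 0.0437 for T2D control minus healthy. For treated minus T2D control, Abcb1b ranged from -0.28 to 0.13, Abcb4 from -0.323 to 0.0155 and Abcc1 from -0.0073 to 0.073. The cause was not tested. No outlier check was run, since groups had 3 pools.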

Other observations

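Some genes listed for canalicular anchoring and trafficking or for bile acid synthesis also differed from healthy livers, and others did not. Of 9 measured genes of canalicular anchoring and trafficking, 3 were higher (Msn, Myo5b and Atp8b1) and 3 lower (Pdzk1, Rab11a and Tmem30a) in each comparison with healthy livers. Msn, which links membrane proteins to actin, rose by 1.83 in treated and 1.65 in T2D control livers (adjusted p = 0.000118 in treated and 0.000175 in T2D control livers). Rdx and Ezr, named after their values were seen, were called in neither comparison. Rdx differed by 0.02 in treated and 0.05 in T2D control livers, and Ezr by 0.11 in treated and 0.06 in T2D control livers. The phospholipid flippase Atp8b1 rose by 0.95 in treated (adjusted p = 0.000592) and by 1.14 in T2D control livers (adjusted p = 0.000271), while its subunit gene Tmem30a fell by 0.71 in treated (adjusted p = 0.000599) and by 0.66 in T2D control livers (adjusted p = 0.000828).

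Of 9 genes listed for bile acid synthesis or its control, 1 was higher (Cyp7a1) and 5 lower (Slc27a5, Hsd3b7, Cyp8b1, Amacr and Baat) in treated livers. In T2D control livers 2 were higher (Cyp7a1 and Nr0b2) and the same 5 lower. Nr0b2 encodes a repressor of the synthesis and not an enzyme of it. Cyp7a1, the rate-limiting enzyme, read 10.81, 10.61 and 10.75 in treated, 11.19, 11.42 and 11.57 in T2D control and 9.50, 9.07 and 9.79 in healthy pools. The 3 groups did not overlap. It rose by 1.27 in treated (adjusted p = 0.00131) and by 1.94 in T2D control livers (adjusted p = 0.000198), and treated minus T2D control was -0.67 (SE 0.17, adjusted p = 0.41).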
